A study of Mus musculus with 29 samples.

Results

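The 42 mitosis and G2/M genes described here were picked by their symbol, as genes of known function in the G2/M transition, chromosome segregation and cytokinesis. No value of these data was part of that rule, but the list was made with earlier results of these data known. All 42 are listed among the 30025 genes of the expression table. Their levels were measured by RNA-Seq in highly purified bone marrow cells of C57BL/6J mice. WT littermates (5 mice, aged 12.42 to 13.28 weeks) were compared with 5A3+/del mice (5 mice, aged 12.42 to 13.85 weeks). The 5A3+/del mice carry a germ-line deletion on 1 copy of mouse chromosome 5, in the segment that corresponds to human 7q22 and lies between the Fbxl13 and Srpk2 genes, so every cell is heterozygous for it and not only the blood cells. The deletion had been made with Cre and loxP in embryonic stem cells and was then crossed into the inbred strain. Cells of the K+L-S+CD41-CD48- gate were sorted by CD150 into CD150hi HSC, CD150lo HSC and CD150neg cells, which the labels call HSC and which are called CD150neg MPP (multipotent progenitors) below, as in the study's methods. Each group holds 1 library per mouse, with n = 5 libraries except for 5A3+/del CD150neg MPP (n = 4, since mouse 5 has none), and the 3 libraries of a mouse share a code in the labels. Mice with the same number in the 2 genotypes are different animals. The labels name no treatment for any group.

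Entry into mitosis is driven by the cyclin-dependent kinase Cdk1 with cyclins A and B, whose activity is released by Cdc25 phosphatases and reinforced by the Plk1 and Aurora kinases. The spindle checkpoint then holds the anaphase-promoting complex (APC/C) and its activator Cdc20 in check until all kinetochores are attached, after which cyclins and securin are destroyed and the cell divides. These genes are transcribed late in the cell cycle by the B-Myb-MuvB complex and Foxm1, and are held down in resting cells by the DREAM complex, through a promoter element called the cell cycle genes homology region (CHR), often beside CCAAT boxes bound by NF-Y. Adult HSC are largely quiescent, and multipotent progenitors divide more often. In bulk RNA a higher level can come from a larger share of cells in G2/M or from more RNA per dividing cell, and these cannot be told apart here.

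Promoter sequences of 36 of the 42 genes were matched by symbol in RefSeq (GRCm38.p6), each as the 300 bases from 250 before to 50 after the annotated start. Ccna2, Aurkb, Kif20a, Tpx2, Cdc25c and Foxm1 had no entry. They were searched on both strands for the CHR, spelled TTTGAA or TTCGAA, for the CCAAT box, and for a MYB site, spelled TAACGG. The second form of the CHR reads the same on both strands and was counted once, and the motifs can share no more than their end base. The promoters of Mki67 (chr7:135716330-135716629, minus strand), Top2a (chr11:99024140-99024439, minus strand), Cdk1 (chr10:69352863-69353162, minus strand), Plk1 (chr7:122159185-122159484, plus strand) and Bub3 (chr7:131560120-131560419, plus strand) are printed to show the spacing of both elements in genes from the proliferation antigen to the spindle checkpoint. Except for Bub3, which was added, these were the first in a set order of genes whose window held both elements. Promoters without both were passed over, so those printed do not stand for all 36. The sequences run 5′ to 3′ along the strand of the gene, and capitals mark each CHR and each CCAAT box, on either strand.
Mki67: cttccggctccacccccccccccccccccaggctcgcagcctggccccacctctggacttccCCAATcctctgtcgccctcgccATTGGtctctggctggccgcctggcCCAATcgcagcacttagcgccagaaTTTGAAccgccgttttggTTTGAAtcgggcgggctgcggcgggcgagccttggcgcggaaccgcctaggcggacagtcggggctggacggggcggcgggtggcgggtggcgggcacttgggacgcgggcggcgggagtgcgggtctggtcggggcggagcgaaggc
Top2a: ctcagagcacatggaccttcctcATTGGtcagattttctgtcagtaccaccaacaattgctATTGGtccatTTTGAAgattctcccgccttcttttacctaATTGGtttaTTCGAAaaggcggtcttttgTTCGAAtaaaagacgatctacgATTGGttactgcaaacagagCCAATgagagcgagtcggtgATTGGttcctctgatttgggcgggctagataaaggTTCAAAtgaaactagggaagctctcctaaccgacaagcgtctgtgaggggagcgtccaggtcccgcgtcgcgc
Cdk1: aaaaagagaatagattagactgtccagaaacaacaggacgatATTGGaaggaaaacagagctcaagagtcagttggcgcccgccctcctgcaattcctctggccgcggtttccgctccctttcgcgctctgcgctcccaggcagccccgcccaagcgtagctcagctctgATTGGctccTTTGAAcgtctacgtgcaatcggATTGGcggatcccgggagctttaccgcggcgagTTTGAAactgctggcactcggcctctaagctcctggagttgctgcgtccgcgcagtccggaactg
Plk1: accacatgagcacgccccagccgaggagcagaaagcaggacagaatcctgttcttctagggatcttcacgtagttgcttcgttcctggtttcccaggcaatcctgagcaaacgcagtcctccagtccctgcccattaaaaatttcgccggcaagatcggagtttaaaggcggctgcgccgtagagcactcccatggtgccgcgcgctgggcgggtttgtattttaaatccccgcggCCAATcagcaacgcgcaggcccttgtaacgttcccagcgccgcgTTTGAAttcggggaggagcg
Bub3: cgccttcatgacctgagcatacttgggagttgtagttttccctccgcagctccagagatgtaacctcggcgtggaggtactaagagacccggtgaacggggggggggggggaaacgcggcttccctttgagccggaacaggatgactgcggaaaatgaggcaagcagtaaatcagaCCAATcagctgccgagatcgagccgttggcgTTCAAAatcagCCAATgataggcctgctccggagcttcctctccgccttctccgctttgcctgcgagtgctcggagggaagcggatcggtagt

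A CHR was present in 27 of the 36 promoters (75%), against 14.2% of the 8975 tested genes that had an entry. A CCAAT box was present in 26 (72.2%, against 38.9%), and both together in 24 (66.7%, against 6.20%). The CHR of these promoters lay close to the start: 25 of 36 (69.4%) had one within 50 bases on either side, where 3.51% of all genes did. In Mki67 the CHR began 116 and 98 bases before the start, in Cdk1 71 and 15 bases before it, in Bub3 43 bases before it, and in Plk1 it began at base 31 of the transcript. Top2a had 4 matches, the first 179 bases before the start, and 6 CCAAT boxes. The MYB site was found in 2 of 36 promoters (5.56%, against 3.80%). Of the 9 promoters without a CHR, those of Birc5, Nusap1, Nuf2, Mad2l1, Melk, Mybl2 and Pttg1 also held no CCAAT box, whereas Ccnb1 and Cenpe did. A match is a description of these letters in this window and not a binding site.

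**Figure D1:**
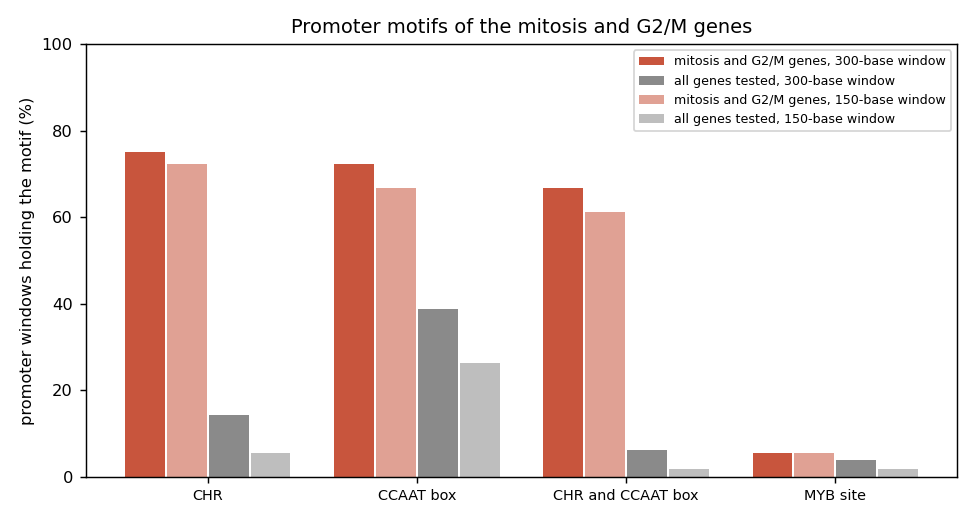
Share of promoter windows (y axis, percent) that hold each motif (x axis) among the 36 mitosis and G2/M genes with an entry (red) and the 8975 tested genes with an entry (grey), in the 300-base window (dark) and in the 150 bases from 100 before to 50 after the start (light). The CHR is in 75% of the windows of the mitosis and G2/M genes and in 14.2% of those of all genes.

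The deposited values are FPKM, the fragments of a gene scaled to its exon length and to the fragments of the library. The low values step in units of whole fragments (98.4% to 98.9% of them per library, within 0.05 of a whole number), from which 21259232 to 38851925 fragments per library, with a median of 26972501, were recovered. Across libraries a mitosis or G2/M gene had a median of 413 fragments, and 5 of the 1218 values were at or below the floor of 3 fragments (3 for Cdc25c, 1 for Kif4 and 1 for Melk). Fragments from amplified RNA are not independent molecules, so this floor covers counting error only. The gate was reflected in the values: Slamf1, which encodes CD150, ran from 9.97 to 22.6 FPKM in the CD150hi HSC libraries, from 0.180 to 2.64 in those of CD150lo HSC and from 0.0095 to 0.296 in those of CD150neg MPP, while Kit was at 111 or above in every library. WT mouse 3 stood apart by Xist (234 to 319 FPKM, against at most 0.470 in the other 26 libraries). Counts of genes past the threshold without it are given where they differ. For counts of higher genes and medians, only ranges over all mice left out in turn include it. No 5A3+/del mouse had such a level, and the labels do not give the sex of the mice. The part of sex in the genotype comparisons was not tested beyond leaving this mouse out.

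All 42 genes passed the filter on low values (4 or more of the 29 libraries with an FPKM of 1 or more), as did 15409 genes in all. As FPKM are per length, levels can be set side by side between genes. Averaged over all libraries, Mki67 (20.3 FPKM), which encodes the Ki-67 antigen of cycling cells, and Bub3 (20.2 FPKM), a checkpoint protein that also serves outside mitosis, were the highest, followed by Ccnb2 (17.9), Pttg1 (15.5), Top2a (14.2) and Kif23 (13.7). The mean of Ccnb2 was raised by 1 library, 5A3+/del CD150neg MPP of mouse 2, at 152 FPKM against at most 31.9 in the others. The lowest of the 42 genes were Kif2c (0.877), Melk (1.16) and Mybl2 (1.31). The typical mitotic gene was below the typical gene: the median over the 42 ran from 3.30 FPKM in WT CD150hi HSC to 4.28 FPKM in 5A3+/del CD150neg MPP, against 5.72 to 5.98 over all genes tested, and between 8 and 14 of the 42 lay above that median, depending on the group. Kif2c was the lowest of the 42 in 5 of the 6 groups.

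The summed FPKM of the 42 genes was 125, 141, 243, 186 and 255 in WT CD150hi HSC (mice 1 to 5), 224, 244, 215, 213 and 303 in WT CD150lo HSC and 210, 199, 260, 253 and 320.2 in WT CD150neg MPP. For 5A3+/del mice it was 204, 213, 210, 242 and 237 (CD150hi HSC), 193, 292, 234, 245 and 279 (CD150lo HSC) and 225, 414, 286 and 300 (CD150neg MPP, mice 1 to 4). The group means were therefore lowest in WT CD150hi HSC (189.9 ± 58.4 SD, n = 5), at 221 ± 17.0 (n = 5) in 5A3+/del CD150hi HSC, at 239.9 ± 37.4 (n = 5) and 248 ± 39.2 (n = 5) in WT and 5A3+/del CD150lo HSC, and at 248 ± 48.1 (n = 5) and 307 ± 79.1 (n = 4) in WT and 5A3+/del CD150neg MPP. All 6 ranges overlapped with each other. The highest library, 5A3+/del CD150neg MPP mouse 2, owed its place to Ccnb2 (mitotic cyclin B2), whose normalized FPKM of 144 was far above the 13.2 to 16.8 of the other 3 libraries of its group. Without Ccnb2, the sum in that group was 257 ± 35.2, against 236 ± 44.3 in WT CD150neg MPP. No test was made of the sum, as the genes had been chosen with earlier results of these data known.

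**Figure D2:**
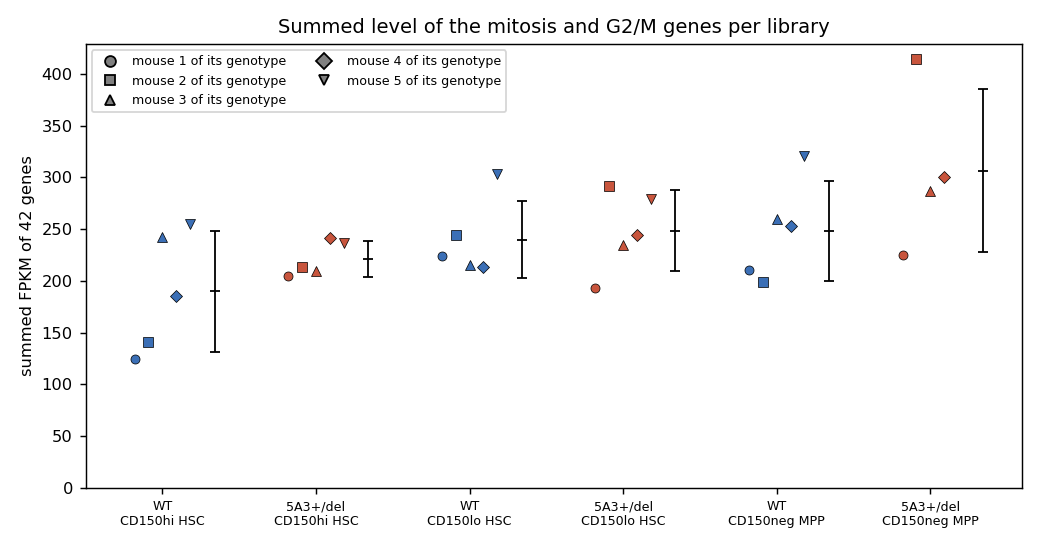
Summed FPKM of the 42 mitosis and G2/M genes (y axis) in each of the 29 libraries, by genotype and population (x axis), with symbols for the mouse number within a genotype, blue for WT, red for 5A3+/del, and bars for the mean ± SD of each group. The WT CD150hi HSC libraries of mice 1 and 2 are the lowest of all (125 and 141), and the highest is the 5A3+/del CD150neg MPP library of mouse 2 (414).

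Many of the genes were high or low in the same mouse. Among WT mice, mouse 5 had the highest value of its group for 18 of the 42 genes (CD150hi HSC), 22 (CD150lo HSC) and 27 (CD150neg MPP), and was above the group mean for 35, 37 and 39 of them. WT mouse 1 was below the group mean for most genes, and had the lowest value of its group for 24, 14 and 19 of the genes. Of the 5A3+/del mice, mouse 1 was lowest for 23, 22 and 25 genes in the same order, and was above the group mean for 13, 10 and 7. Relative to its group mean, the median gene of WT mouse 5 lay 0.40, 0.28 and 0.39 higher on the log2 scale in the 3 populations, and that of 5A3+/del mouse 1 lay 0.35, 0.38 and 0.33 lower. These shifts between mice of 1 genotype are larger than the median differences between the genotypes given below. The number of genes with a value above 0 differed between the libraries too. It was lowest in 5A3+/del mouse 1 among the 5A3+/del libraries of each population (17346, 18927 and 18443 genes, against 18468 to 21654, 19077 to 21751 and 18976 to 21155 in the others). WT mouse 1 had the lowest number of its group in CD150neg MPP (18286, against 19044 to 23588), and in CD150hi HSC WT mice 1 and 2 had 18551 and 17504, against 19675 to 20488. WT CD150lo HSC differed: mouse 2 had the lowest number (19427) and mouse 1 had 19439. Mouse 4 of that group, which had its lowest value for 17 of the 42 genes, had 20330. The part of detected genes and of age in these shifts between mice was not tested. Age, which differed between mice, was entered only in an alternative fit of the genotype comparisons.

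**Figure D3:**
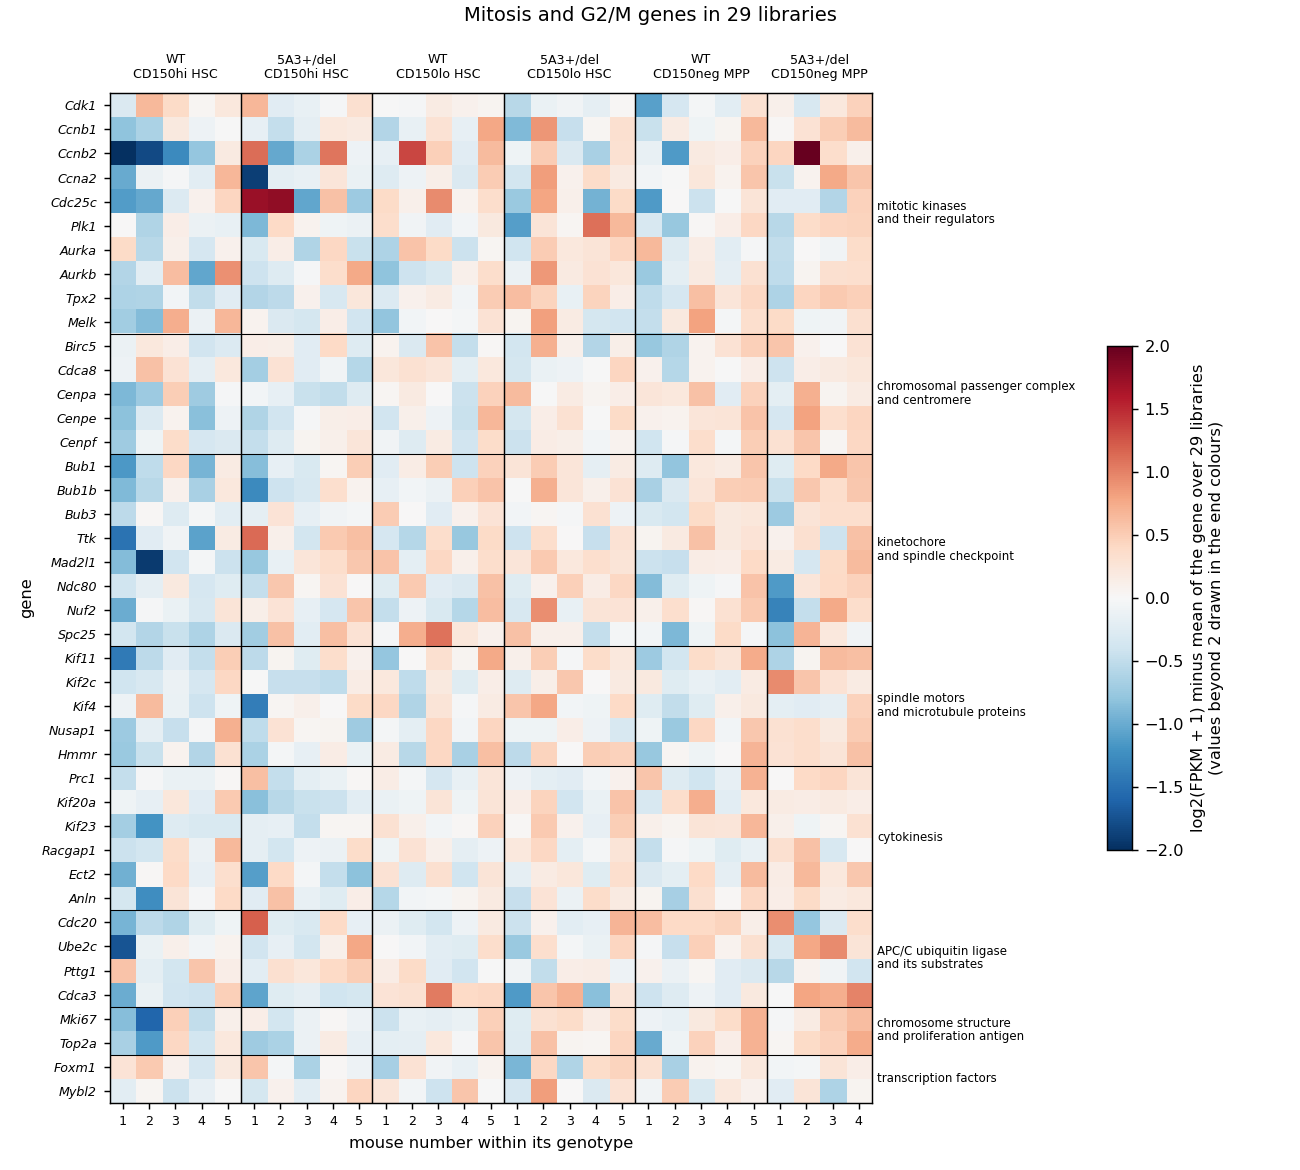
Heat map of the 42 genes (rows, grouped by role) in the 29 libraries (columns, by group and by mouse number within the genotype), coloured by the log2(FPKM + 1) value, quantile normalized, minus the mean of the gene over all libraries. Within its group, the WT CD150hi HSC library of mouse 1 is the lowest for 24 of the 42 genes, and the WT CD150neg MPP library of mouse 5 is the highest for 27.

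For the comparisons, log2(FPKM + 1) values were quantile normalized and fitted with limma over all 29 libraries, and a gene was called at a Benjamini-Hochberg adjusted p under 0.05 over all 15409 genes. Values per library below are these values turned back to FPKM (normalized FPKM), in the order of mice 1 to 5 (1 to 4 in 5A3+/del CD150neg MPP). Fold changes are on the log2(FPKM + 1) scale, which understates the change of low genes. Quantile normalization can also lift values near 0 and change their order between libraries.

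Cdk1, the kinase that drives entry into mitosis, had normalized FPKM of 2.73, 6.17, 4.97, 3.68 and 4.26 for the CD150hi HSC, 3.55, 3.46, 4.097, 3.86 and 3.75 for the CD150lo HSC and 1.14, 2.61, 3.44, 2.94 and 4.62 for the CD150neg MPP of WT mice. The 5A3+/del values were 6.203, 2.896, 3.104, 3.47 and 4.72 for the CD150hi HSC, 2.09, 3.16, 3.33, 3.01 and 3.64 for the CD150lo HSC and 3.87, 2.66, 4.26 and 5.302 for the CD150neg MPP. The ranges overlapped for every pair of populations and for both genotypes. Ccnb1, which encodes cyclin B1, had 1.18, 1.45, 3.37, 2.56 and 2.77 for the CD150hi HSC, 1.54, 2.43, 3.65, 2.403 and 5.51 for the CD150lo HSC and 1.79, 3.27, 2.604, 2.98 and 4.99 for the CD150neg MPP of WT mice. Among 5A3+/del mice the values were 2.42, 1.74, 2.36, 3.41 and 3.31 for the CD150hi HSC, 1.06, 6.05, 1.76, 2.903 and 3.78 for the CD150lo HSC and 2.87, 3.64, 4.34 and 4.91 for the CD150neg MPP. Again no group stood apart, and the lowest and the highest library, mice 1 and 2 of 5A3+/del CD150lo HSC, were in 1 group.

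Ccna2, the gene for cyclin A2, was at 3.03, 6.49, 6.92, 5.99 and 11.8 for the CD150hi HSC, 5.73, 6.53, 7.75, 5.64 and 10.5 for the CD150lo HSC and 6.76, 7.01, 8.46, 7.48 and 10.8 for the CD150neg MPP of WT mice. For 5A3+/del mice they were 1.203, 6.09, 6.26, 8.61 and 6.38 for the CD150hi HSC, 5.28, 13.4, 7.58, 9.42 and 8.15 for the CD150lo HSC and 4.95, 7.52, 12.6 and 10.8 for the CD150neg MPP. The lowest of all was 5A3+/del CD150hi HSC of mouse 1, while mouse 5 was the highest in each of the WT groups. Of its exonic bases, 14.6% are shared with those of Exosc9, so part of its fragments may belong to that gene. Plk1, the polo-like kinase of mitotic entry and spindle assembly, was at 2.09, 1.04, 2.39, 1.84 and 1.79 for the CD150hi HSC, 2.91, 1.93, 1.64, 1.98 and 2.51 for the CD150lo HSC and 1.46, 0.814, 2.13, 2.37 and 3.098 for the CD150neg MPP of WT mice. Libraries of 5A3+/del mice had 0.649, 3.06, 2.25, 1.91 and 1.82 for the CD150hi HSC, 0.439, 2.698, 2.17, 5.62 and 3.82 for the CD150lo HSC and 1.101, 2.98, 3.15 and 3.19 for the CD150neg MPP. Mouse 1 of the 5A3+/del genotype was lowest in all 3 populations, and in CD150neg MPP it stood clearly below the other 3 libraries.

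Among the chromosomal passenger genes, Aurkb (Aurora B kinase) had normalized FPKM of 2.11, 3.06, 6.15, 1.28 and 7.84 for the CD150hi HSC, 1.67, 2.51, 2.801, 4.05 and 4.95 for the CD150lo HSC and 1.795, 3.07, 4.31, 3.14 and 4.77 for the CD150neg MPP of WT mice. The 5A3+/del values were 2.49, 2.901, 3.61, 4.96 and 6.89 for the CD150hi HSC, 3.304, 7.49, 4.27, 4.74 and 4.46 for the CD150lo HSC and 2.297, 3.85, 4.82 and 4.89 for the CD150neg MPP. In CD150lo HSC its genotype difference was 0.50 ± 0.31 SE on the log2 scale (limma unadjusted p = 0.119), and the ranges of both genotypes overlapped. Birc5, which encodes survivin, the passenger subunit that targets Aurora B to centromeres, had 2.39, 3.25, 3.02, 1.81 and 2.05 for the CD150hi HSC, 2.87, 2.01, 4.44, 1.63 and 2.74 for the CD150lo HSC and 1.17, 1.41, 2.86, 3.47 and 4.15 for the CD150neg MPP of WT mice. Among 5A3+/del mice the values were 3.04, 2.999, 2.13, 3.87 and 2.09 for the CD150hi HSC, 1.85, 5.02, 2.96, 1.46 and 2.99 for the CD150lo HSC and 4.38, 2.899, 2.68 and 3.501 for the CD150neg MPP. The ranges of all groups overlapped.

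In the spindle checkpoint and APC/C group, Bub3 had 13.5, 20.2, 16.4, 19.2 and 16.9 for the CD150hi HSC, 28.6, 19.8, 16.8, 21.1 and 24.1 for the CD150lo HSC and 15.9, 15.1, 26.2, 22.9 and 23.4 for the CD150neg MPP of WT mice. For 5A3+/del mice they were 17.3, 24.1, 17.5, 18.7 and 19.2 for the CD150hi HSC, 18.98, 20.3, 19.5, 24.8 and 18.4 for the CD150lo HSC and 11.6, 23.96, 25.3 and 25.3 for the CD150neg MPP. The lowest library was again that of mouse 1 in 5A3+/del CD150neg MPP. Mad2l1, which encodes the Mad2 checkpoint protein, had 4.26, 1.54, 6.39, 8.32 and 6.09 for the CD150hi HSC, 13.2, 7.36, 11.8, 9.25 and 11.2 for the CD150lo HSC and 6.09, 5.96, 9.68, 9.54 and 11.7 for the CD150neg MPP of WT mice. Libraries of 5A3+/del mice had 4.67, 7.63, 10.3, 11.2 and 12.9 for the CD150hi HSC, 10.4, 12.7, 10.1, 11.04 and 10.5 for the CD150lo HSC and 9.72, 6.61, 11.5 and 13.9 for the CD150neg MPP. The lowest library was WT CD150hi HSC of mouse 2, at 1.54.

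Cdc20, the APC/C activator that the checkpoint holds back, had 1.800, 2.73, 2.51, 3.54 and 4.05 for the CD150hi HSC, 3.91, 3.53, 3.14, 3.96 and 5.05 for the CD150lo HSC and 7.21, 6.05, 6.02, 6.25 and 4.796 for the CD150neg MPP of WT mice. The 5A3+/del values were 11.2, 3.52, 3.33, 6.05 and 3.76 for the CD150hi HSC, 2.99, 4.69, 3.62, 3.76 and 7.596 for the CD150lo HSC and 9.24, 2.14, 3.37 and 5.79 for the CD150neg MPP. In WT mice every CD150neg MPP library was above every CD150hi HSC library, and 8.63% of all genes had no overlap between these groups. In 5A3+/del mice the populations overlapped and mouse 1 was the highest in both CD150hi HSC and CD150neg MPP.

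Mki67 had 10.2, 5.797, 27.2, 13.4 and 20.7 for the CD150hi HSC, 14.1, 17.2, 16.9, 17.6 and 27.2 for the CD150lo HSC and 17.96, 17.3, 22.2, 25.1 and 32.02 for the CD150neg MPP of WT mice. Among 5A3+/del mice the values were 21.2, 14.8, 17.7, 19.6 and 17.9 for the CD150hi HSC, 16.1, 24.1, 25.1, 21.5 and 25.3 for the CD150lo HSC and 18.997, 21.7, 27.7 and 30.03 for the CD150neg MPP. WT CD150hi HSC spread from 5.80 to 27.2, the widest range of the 6 groups. Top2a, topoisomerase II alpha, which untangles sister chromatids, had 8.21, 5.63, 18.4, 10.2 and 15.7 for the CD150hi HSC, 11.7, 11.7, 15.7, 13.3 and 20.2 for the CD150lo HSC and 6.18, 12.6, 19.04, 14.9 and 22.4 for the CD150neg MPP of WT mice. For 5A3+/del mice they were 7.84, 8.32, 12.3, 15.2 and 11.9 for the CD150hi HSC, 11.2, 20.8, 14.1, 13.9 and 18.6 for the CD150lo HSC and 13.8, 17.8, 18.9 and 23.2 for the CD150neg MPP. WT mice 1 and 2 were low in CD150hi HSC for both genes, and mouse 5 was the highest in WT CD150neg MPP for both.

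Of the transcription factors that switch these genes on, Foxm1 had 4.88, 5.95, 4.16, 2.85 and 4.54 for the CD150hi HSC, 2.07, 4.91, 3.599, 3.38 and 4.097 for the CD150lo HSC and 5.01, 2.07, 4.08, 3.98 and 4.595 for the CD150neg MPP of WT mice. Libraries of 5A3+/del mice had 6.15, 3.71, 2.11, 3.900 and 3.49 for the CD150hi HSC, 1.58, 5.43, 2.18, 5.24 and 5.57 for the CD150lo HSC and 3.65, 3.74, 4.78 and 4.32 for the CD150neg MPP. Mybl2, which encodes B-Myb, had 0.942, 1.304, 0.672, 0.993 and 1.23 for the CD150hi HSC, 1.66, 1.15, 0.686, 2.295 and 1.24 for the CD150lo HSC and 1.13, 2.18, 0.816, 1.602 and 1.38 for the CD150neg MPP of WT mice. The 5A3+/del values were 0.763, 1.37, 0.935, 1.36 and 2.03 for the CD150hi HSC, 0.777, 3.02, 1.26, 0.844 and 1.75 for the CD150lo HSC and 0.9096, 1.68, 0.467 and 1.32 for the CD150neg MPP. Both factors had overlapping ranges in all groups, and the genotype difference of the pair had a median of -0.02, 0.04 and -0.07 on the log2 scale in the 3 populations.

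The first question was how these genes change from CD150hi HSC to the more dividing CD150neg MPP. In WT mice the average level of 34 of the 42 genes was higher in CD150neg MPP, and the median difference from CD150hi HSC was 0.24 on the log2 scale. Among all 15409 genes 50.9% were higher, with a median of 0.01. Kif23 and Cdc20 passed the threshold, both higher in CD150neg MPP. That is 2 of 42, where 10.0% of all genes passed and 4.58% were higher, a share near the background. At an unadjusted p under 0.05 there were 9, of which 8 were higher and 1, Cdk1, was lower, and 21.8% of all genes reached that level.

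Kif23 (chr9:61765087-61794606, minus strand, mm9) encodes the motor subunit of centralspindlin, which organises the midzone for cytokinesis. Its normalized FPKM was 7.88, 5.21, 10.9, 10.6 and 10.6 for the CD150hi HSC, 16.7, 14.3, 12.8, 13.6 and 18.8 for the CD150lo HSC and 14.4, 13.9, 16.02, 15.9 and 21.6 for the CD150neg MPP of WT mice. Among 5A3+/del mice the values were 11.6, 11.7, 9.32, 13.7 and 13.7 for the CD150hi HSC, 13.6, 19.6, 14.1, 11.7 and 19.1 for the CD150lo HSC and 14.3, 12.4, 13.7 and 16.6 for the CD150neg MPP. All 10 WT libraries of CD150lo HSC and CD150neg MPP were above the 5 of WT CD150hi HSC, and in 5A3+/del mice the populations overlapped. Between WT CD150neg MPP and CD150hi HSC, 3 of the 42 genes had no overlap in either direction, as had 8.63% of all genes. Between WT CD150lo HSC and CD150hi HSC it was 2 of the 42 and 4.04% of all genes. Both are near the background. The difference between WT CD150neg MPP and CD150hi HSC was 0.81 ± 0.17 SE on the log2 scale (limma adjusted p = 0.00217), and it passed in all 22 fits made. Cdc20 (chr4:118105506-118109957, minus strand, mm9) differed by 0.87 ± 0.28 SE (limma adjusted p = 0.0439), and it passed in 15 of 22 fits. Next in order of p were Cenpa, the centromeric histone (0.63 ± 0.22 SE, limma adjusted p = 0.07595), Cenpe, a kinetochore motor (0.63 ± 0.23 SE, limma adjusted p = 0.07899), and Ttk, the Mps1 checkpoint kinase (0.79 ± 0.30 SE, limma adjusted p = 0.102). Mki67 differed by 0.67 ± 0.26 SE with an interval from 0.14 to 1.21 (limma adjusted p = 0.111). With the mouse as a fixed block, 5 genes passed (Mki67, Cdc20, Cenpa, Cenpe and Kif23), and with the mouse as a random block 3. The share of all genes that passed with a block is not given here, so the rise cannot be called particular to these genes. The count was 1 when WT mouse 1, 2 or 4 or 5A3+/del mouse 3 or 4 was left out, and 3 without WT mouse 3 (Mki67, Cenpa and Kif23) or without 5A3+/del mouse 1 (Cdc20, Cenpe and Kif23).

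Among the WT libraries, all 8 kinetochore and checkpoint genes (Bub1, Bub1b, Bub3, Ttk, Mad2l1, Ndc80, Nuf2 and Spc25) were on average higher in CD150neg MPP than in CD150hi HSC, with a median of 0.40, and none passed. The mitotic kinases and their regulators were higher in 8 of 10 (median 0.18), the cytokinesis genes in 5 of 6 (0.19), and the passenger and centromere genes in 3 of 5 (0.29).

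The comparison of WT CD150lo HSC with WT CD150hi HSC shares its CD150hi HSC libraries with the one above. On average 34 of the 42 genes were higher in CD150lo HSC (50.4% of all genes were), with a median of 0.26 on the log2 scale against 0.00 for all genes. Kif23 (0.72 ± 0.17 SE, limma adjusted p = 0.0146) and Mad2l1 (chr6:66485384-66491027, plus strand, mm9, 0.97 ± 0.28 SE, limma adjusted p = 0.0463) passed, where 3.53% of all genes did and 1.46% were higher. A further 4 reached an unadjusted p under 0.05 (14.1% of all genes did), among them Spc25, an Ndc80 complex subunit (0.88 ± 0.28 SE, limma adjusted p = 0.0835), Ccnb2 (1.63 ± 0.55 SE, limma adjusted p = 0.117) and Cdca3 (0.77 ± 0.30 SE, limma adjusted p = 0.1999). Kif23 passed in 19 of 22 fits and Mad2l1 in 9 of 22. None passed without WT mouse 1, without WT mouse 2, or when only the groups compared were fitted, 1 passed without WT mouse 3 or 5 or 5A3+/del mouse 3, 4 or 5, and 3 passed without 5A3+/del mouse 1 (Kif23, Spc25 and Mad2l1). Without WT mouse 1 the number of genes higher in CD150lo HSC was 27 of 42 and the median 0.15, and over all mice left out in turn the median ran from 0.15 to 0.32. With the mouse as a fixed block the same 2 genes passed.

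Between CD150neg MPP and CD150lo HSC of WT mice the genes were evenly divided. On average 20 were higher in CD150neg MPP and 22 lower (51.1% of all genes were higher), with a median of -0.002 against 0.01, and from -0.04 to 0.03 with 1 mouse left out. None passed by limma (0.188% of all genes did), and 1 reached an unadjusted p under 0.05, where 8.75% of all genes did. This was Cdca3 (-0.65 ± 0.30 SE, limma adjusted p = 0.534), and next were Spc25 (-0.56 ± 0.28 SE), Cdc20 (0.53 ± 0.28 SE), Cdk1 (-0.33 ± 0.21 SE) and Ttk (0.44 ± 0.30 SE). The 95% interval of 35 of the 42 genes stayed within a doubling or halving of FPKM + 1.

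In 5A3+/del mice, 32 of the 42 genes were on average higher in CD150neg MPP than in CD150hi HSC (50.5% of all genes were), with a median of 0.29 against 0.00. Kif2c and Cdca3 passed, both higher in CD150neg MPP, where 6.16% of all genes passed and 2.93% were higher. At an unadjusted p under 0.05 there were 6 (16.9% of all genes), 5 higher and 1, Pttg1, which encodes securin, lower (-0.48 ± 0.20 SE, limma adjusted p = 0.187).

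Kif2c (chr4:116832244-116855244, minus strand, mm9) encodes MCAK, a kinesin that depolymerises microtubules at centromeres. Its normalized FPKM was 0.796, 0.315, 0.318, 0.268 and 1.003 for the CD150hi HSC, 0.505, 0.963, 1.62, 0.816 and 1.04 for the CD150lo HSC and 2.46, 1.67, 1.21 and 1.02 for the CD150neg MPP of 5A3+/del mice. The WT values were 0.373, 0.441, 0.671, 0.426 and 1.41 for the CD150hi HSC, 1.09, 0.272, 1.06, 0.525 and 0.974 for the CD150lo HSC and 1.08, 0.526, 0.633, 0.563 and 1.03 for the CD150neg MPP. Normalization changed the order of the low values. Before it, WT CD150hi HSC of mouse 2 was at 0.0443 FPKM (6 fragments), and that of mouse 4 was at 0.5898 (71 fragments). All 4 of the 5A3+/del CD150neg MPP libraries were above those of 5A3+/del CD150hi HSC, by a narrow margin at 1.02 against 1.00. Between these groups 4 of the 42 genes had no overlap, as had 7.61% of all genes. The Kif2c difference was 0.74 ± 0.20 SE (limma adjusted p = 0.0225) and it passed in 18 of 22 fits. Cdca3 (chr6:124779565-124783719, plus strand, mm9), which encodes Tome-1, a factor that triggers mitotic entry and is destroyed through the APC/C, was at 0.514, 1.65, 1.76, 1.38 and 1.48 for the CD150hi HSC, 0.435, 3.64, 4.11, 0.753 and 2.73 for the CD150lo HSC and 2.11, 4.43, 4.22 and 5.22 for the CD150neg MPP of 5A3+/del mice. The WT values were 0.583, 1.87, 1.405, 1.37 and 3.39 for the CD150hi HSC, 2.81, 2.87, 5.48, 3.14 and 3.203 for the CD150lo HSC and 1.36, 1.63, 1.93, 1.67 and 2.61 for the CD150neg MPP. In 5A3+/del CD150lo HSC it split into 3 libraries between 2.73 and 4.11 and 2 under 1. The 0.514 of Cdca3 in 5A3+/del CD150hi HSC of mouse 1 came from 0.0655 FPKM (5 fragments) before normalization. Its difference between CD150neg MPP and CD150hi HSC was 1.07 ± 0.32 SE (limma adjusted p = 0.0419), and it passed in 10 of 22 fits.

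Next in order were Kif20a, a midzone kinesin (0.65 ± 0.20 SE, limma adjusted p = 0.0559), and Ect2, the exchange factor that activates RhoA for cytokinesis (0.79 ± 0.28 SE, limma adjusted p = 0.0962). With the mouse as a fixed block, 5 genes passed (Top2a, Kif20a, Kif2c, Ect2 and Cdca3), and with a random block 3. The share of all genes that passed with a block is not given here either. None passed without 5A3+/del mouse 2 or without mouse 3, and 1 passed without 5A3+/del mouse 1 or 4 or WT mouse 2 or 4. Here the cytokinesis genes (6 of 6, median 0.27), the spindle motors and microtubule proteins (5 of 5, 0.51) and the passenger and centromere genes (5 of 5, 0.39) were higher on average, and the kinetochore and checkpoint genes were higher in 4 of 8 (0.00).

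Between CD150lo HSC and CD150hi HSC of 5A3+/del mice, 31 of the 42 genes were higher in CD150lo HSC (50.7% of all genes), with a median of 0.21 against 0.00. None passed by limma, where 3.18% of all genes did, and 4 reached an unadjusted p under 0.05 (13.3% of all genes). Kif20a (0.62 ± 0.19 SE, limma adjusted p = 0.0803) was the first of these, followed by Tpx2, a spindle assembly factor that activates Aurora A (0.52 ± 0.23 SE), Cenpa (0.48 ± 0.22 SE) and Bub1b, the BubR1 checkpoint protein (0.59 ± 0.28 SE), and then by Ccna2 (0.64 ± 0.32 SE). Kif20a passed with the mouse as a fixed block. Of its exonic bases, 32.3% are shared with Cdc23, which encodes an APC/C subunit, so its value may hold fragments of that gene.

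Between CD150neg MPP and CD150lo HSC of 5A3+/del mice, 26 genes were higher in CD150neg MPP (48.8% of all genes), with a median of 0.07. Without 5A3+/del mouse 4 these were 21 genes with a median of -0.0001, and without 5A3+/del mouse 2 they were 28 with a median of 0.18. None passed by limma, where 0.0389% of all genes did, and 1, Cdca3 (0.72 ± 0.32 SE), reached an unadjusted p under 0.05, where 4.95% of all genes did. Then came Ccnb2 (1.13 ± 0.58 SE), Kif2c (0.37 ± 0.20 SE), Prc1, the midzone bundling protein (0.37 ± 0.21 SE), and Cenpf (0.36 ± 0.21 SE).

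**Figure D4:**
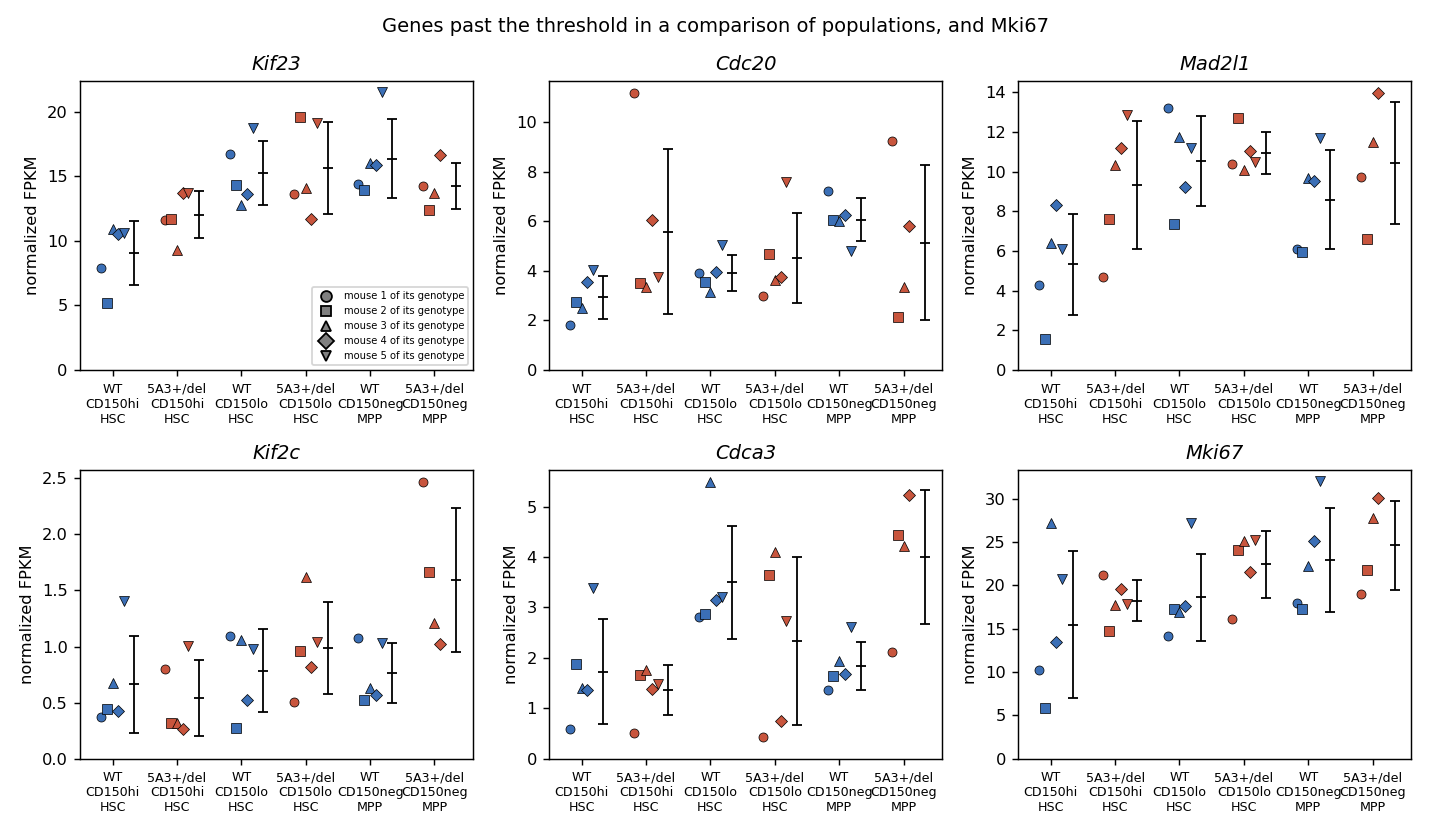
Normalized FPKM (y axis) of the 5 genes that passed the threshold in a comparison of populations and of Mki67, in each library by group (x axis), with symbols for the mouse number, blue for WT, red for 5A3+/del, and bars for the mean ± SD. In the Kif23 panel all WT CD150lo HSC and CD150neg MPP libraries lie above the WT CD150hi HSC libraries, while the Mki67 groups overlap. Of all genes, 4.04% (WT CD150lo HSC) and 8.63% (WT CD150neg MPP) have no overlap with WT CD150hi HSC.

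Within single mice, the median gene was higher in CD150neg MPP than in CD150hi HSC in 9 of 9 mice with both libraries, by 0.08 to 0.43 on the log2 scale, and between 24 and 36 of the 42 genes were higher. Between CD150lo HSC and CD150hi HSC the median gene was higher in 9 of 10 mice, the exception being 5A3+/del mouse 4 (-0.13). Between CD150neg MPP and CD150lo HSC it was higher in 5 of 9 mice, with a range from -0.23 to 0.37. These are descriptions of genes that vary together in a library, and no test was made across them.

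Markers of other cell types differed between the populations as well. The progenitor markers Cd48, Flt3 and Cd34 had a summed FPKM of 22.4 to 56.6 in WT CD150hi HSC, 118 to 176 in WT CD150lo HSC and 195 to 241 in WT CD150neg MPP, and of 41.5 to 62.3, 154 to 177 and 209 to 265 in 5A3+/del mice. Cd48 was at 0 in 1 library of each genotype in CD150hi HSC. The 9 erythroid markers summed to 23.0 to 54.2 in WT CD150hi HSC, 61.0 to 104 in WT CD150lo HSC and 33.6 to 116 in WT CD150neg MPP, and to 26.8 to 63.2, 36.9 to 75.3 and 31.8 to 72.5 in 5A3+/del mice. The 8 granulocyte and monocyte markers summed to 211 to 243, 209 to 334 and 185 to 262 in WT mice and to 216 to 255, 225 to 307 and 221 to 305 in 5A3+/del mice. Within that list WT mouse 1 stood apart for some of the genes only. In its CD150hi HSC library the granule genes Mpo and Elane were at 19.7 and 19.1 FPKM, against at most 1.38 and 1.59 in the other 9 CD150hi HSC libraries. Its CD150lo HSC library had 15.7 and 27.7, against at most 8.63 and 13.9 in the other 9. Ctsg (5.57) and Ly6g (9.31) were also the highest in its CD150hi HSC library, and Ly6g was at 4.82 in that of WT mouse 2. Prtn3 (25.7), Itgam (1.71) and Csf1r (0.0303) in the CD150hi HSC library of WT mouse 1 lay within the range of the other CD150hi HSC libraries. Lyz2 (162) lay below that range. Without WT mouse 1, as without WT mouse 2, neither Kif23 nor Mad2l1 passed between WT CD150lo HSC and WT CD150hi HSC. The part of these markers in the differences above was not tested.

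The second question was whether the 5A3 deletion changes these genes. None of the 42 passed the threshold between the genotypes by limma in any population, where 0.156% of all genes did in CD150hi HSC, 0.0324% did in CD150lo HSC and 0.0454% did in CD150neg MPP. At an unadjusted p under 0.05 there were 8, 0 and 2 of the 42, where 13.1%, 6.87% and 4.27% of all genes reached it. In the same order, 29, 31 and 33 genes were on average higher in 5A3+/del mice (50.7%, 52.0% and 49.8% of all genes were), with medians of 0.13, 0.10 and 0.13 on the log2 scale against medians within 0.01 of 0 for all genes. These 3 counts are descriptions: the genes of a library vary together, and with 1 mouse left out they ran from 26 to 34, from 22 to 32 and from 27 to 35. The medians moved by over 1.5 times as well. In CD150hi HSC the median was 0.04 without WT mouse 1 and 0.22 without 5A3+/del mouse 1. In CD150lo HSC it was 0.01 without 5A3+/del mouse 2 and 0.17 without WT mouse 5. In CD150neg MPP it was 0.07 without 5A3+/del mouse 4 and 0.28 without WT mouse 5. The 95% interval lay within a doubling or halving of FPKM + 1 for 35, 38 and 36 of the 42 genes in the 3 populations.

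In CD150hi HSC, Ttk had the smallest p. Its normalized FPKM was 0.686, 3.03, 3.49, 1.25 and 4.25 in WT mice and 9.27, 4.04, 2.63, 5.76 and 6.13 in 5A3+/del mice, a difference of 0.93 ± 0.30 SE with an interval from 0.31 to 1.55 (limma unadjusted p = 0.00458, adjusted p = 0.172). Kif20a was at 1.66, 1.498, 2.28, 1.41 and 3.04 in WT mice and at 0.576, 0.918, 1.07, 1.09 and 1.42 in 5A3+/del mice (-0.55 ± 0.19 SE, limma adjusted p = 0.202). These 2 groups touched only between 1.41 and 1.42. Mad2l1 (0.77 ± 0.28 SE), Ccnb2 (1.31 ± 0.55 SE) and Cdc20 (0.65 ± 0.28 SE) followed, with limma adjusted p from 0.216 to 0.308. For Cdc20, mouse 1 alone was at 11.2, and the other 4 of the 5A3+/del libraries were between 3.33 and 6.05. All 8 kinetochore and checkpoint genes were on average higher in 5A3+/del CD150hi HSC (median 0.31), against 2 of 5 spindle motors and microtubule proteins (-0.03) and 3 of 6 cytokinesis genes (0.01). Mki67 differed by 0.38 ± 0.26 SE (interval -0.15 to 0.92).

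In CD150lo HSC no gene reached an unadjusted p under 0.05. Cdca3 was the nearest (-0.58 ± 0.30 SE, unadjusted p = 0.0639 by limma), followed by Aurkb, Spc25 (-0.37 ± 0.28 SE), Nuf2, another Ndc80 complex subunit (0.37 ± 0.31 SE), and Cdk1 (-0.24 ± 0.21 SE). In CD150neg MPP, Kif2c (0.53 ± 0.20 SE, limma adjusted p = 0.9998) and Cdca3 (0.78 ± 0.32 SE, limma adjusted p = 0.9998) had the smallest p, followed by Ccnb2 (1.19 ± 0.58 SE), Cdk1 (0.39 ± 0.22 SE) and Racgap1, the centralspindlin partner of Kif23 (0.34 ± 0.20 SE). The Ccnb2 mean includes the library of mouse 2 described above. Mki67 differed between the genotypes by 0.27 ± 0.26 SE in CD150lo HSC and by 0.11 ± 0.28 SE in CD150neg MPP.

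**Figure D5:**
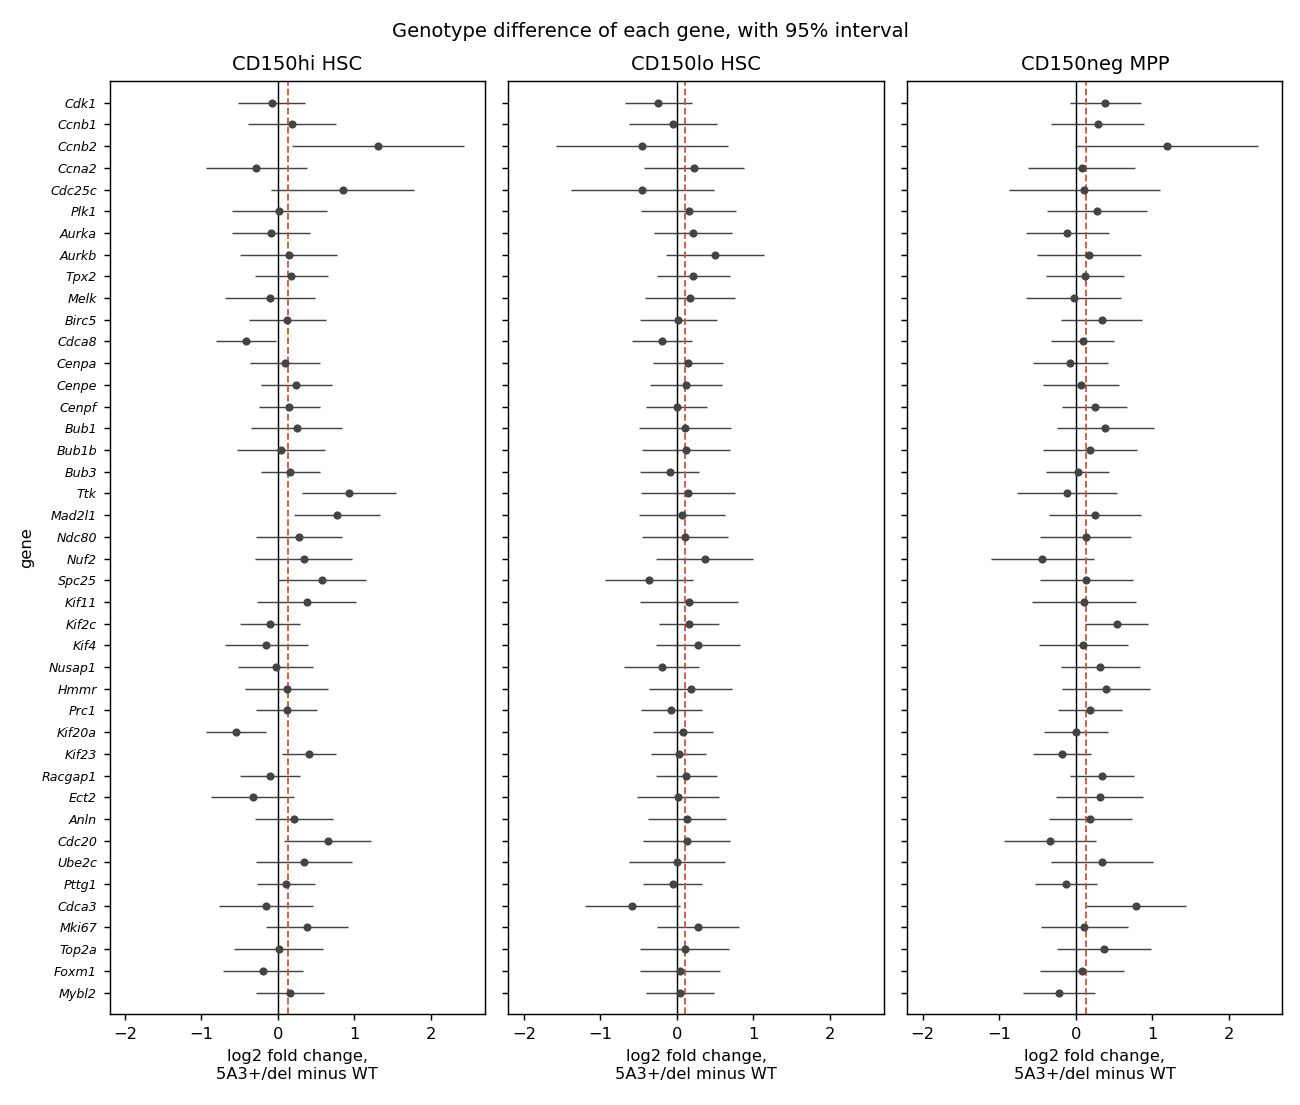
Genotype difference (x axis, log2 fold change of 5A3+/del minus WT on the log2(FPKM + 1) scale) of each of the 42 genes (y axis) in the 3 populations, with 95% intervals from limma as bars, a line at 0 and a dashed line at the median of the genes. The medians are 0.13, 0.10 and 0.13, and most intervals include 0.

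The third question was whether the step between populations differs between the genotypes. No gene passed by limma, for any of the 3 steps, among the 42 or among all 15409 genes (0%). At an unadjusted p under 0.05 there were 5 of 42 for the step from CD150hi HSC to CD150neg MPP (7.96% of all genes), 2 for the step from CD150lo HSC to CD150neg MPP (5.00%) and 3 for the step from CD150hi HSC to CD150lo HSC (3.98%). Genes past the threshold in 1 genotype were thus not shown to differ from the other. For the first step, Kif23 (-0.58 ± 0.25 SE) had a smaller rise in 5A3+/del mice on average. The steps of Cdc20 (-0.99 ± 0.40 SE) and Ttk (-1.04 ± 0.44 SE) were changed by more than their WT rises of 0.87 and 0.79. Their estimates in 5A3+/del mice were therefore below 0. Kif2c (0.64 ± 0.28 SE) and Cdca3 (0.94 ± 0.44 SE) had larger rises. All of these changes had a limma adjusted p of 0.5499 or above. The smallest p was that of Cdca3 for the step from CD150lo HSC to CD150neg MPP (1.36 ± 0.44 SE, interval 0.47 to 2.26, limma adjusted p = 0.686). For the step from CD150hi HSC to CD150lo HSC they were Spc25 (-0.94 ± 0.39 SE), Kif20a (0.63 ± 0.27 SE) and Ccnb2 (-1.76 ± 0.77 SE).

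The genes with a CHR in the promoter were set beside the others. In WT mice, 23 of the 27 with a CHR were on average higher in CD150neg MPP than in CD150hi HSC (median 0.26), as were 7 of the 9 without (0.24). For CD150lo HSC against CD150hi HSC the numbers were 24 of 27 (0.32) and 7 of 9 (0.22). In 5A3+/del mice they were 22 of 27 (0.30) and 6 of 9 (0.20) for CD150neg MPP, and 20 of 27 (0.27) and 7 of 9 (0.10) for CD150lo HSC, each against CD150hi HSC. For CD150neg MPP against CD150lo HSC they were 11 of 27 (-0.02) and 5 of 9 (0.02) in WT mice, and 18 of 27 (0.13) and 5 of 9 (0.08) in 5A3+/del mice. For the genotype difference in CD150hi HSC they were 19 of 27 (0.12) and 7 of 9 (0.16), followed by 20 of 27 (0.11) and 6 of 9 (0.04) in CD150lo HSC and by 22 of 27 (0.19) and 5 of 9 (0.06) in CD150neg MPP. The difference between these 2 classes was not tested.

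Further genes of the same processes were listed by function, as 52 tested genes for other mitotic kinesins, kinetochore and cytokinesis proteins. Of these, 44 were on average higher in WT CD150neg MPP than in WT CD150hi HSC (median 0.24), 42 in WT CD150lo HSC (0.18), 41 in 5A3+/del CD150neg MPP (0.21) and 39 in 5A3+/del CD150lo HSC (0.19), each against CD150hi HSC of the same genotype. Hjurp, the chaperone of the centromeric histone (0.45 ± 0.10 SE, limma adjusted p = 0.00406), and Cks1b, a Cdk1 cofactor (0.74 ± 0.24, limma adjusted p = 0.0483), passed in WT CD150neg MPP, where 10.0% of all genes did. In 5A3+/del CD150neg MPP, where 6.16% of all genes passed, Troap, a cytoskeletal protein of the spindle, was higher (1.11 ± 0.27, limma adjusted p = 0.0110) and Cenpt, an inner kinetochore protein, was lower (-0.78 ± 0.21, limma adjusted p = 0.0187). None of the 52 passed the threshold between the genotypes by limma in CD150hi HSC, CD150lo HSC or CD150neg MPP (0.156%, 0.0324% and 0.0454% of all genes did). At an unadjusted p under 0.05 there were 3, 0 and 2, where 13.1%, 6.87% and 4.27% of all genes reached it.

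Genes of the machinery that acts on mitotic proteins or represses these promoters were listed too. Of the 13 genes for APC/C core subunits and its interphase activator Fzr1, 8 were higher in WT CD150neg MPP than in WT CD150hi HSC (median 0.01) and 6 in WT CD150lo HSC (-0.01). Anapc1, the largest subunit, was lower in WT CD150lo HSC (-0.36 ± 0.10 SE, limma adjusted p = 0.0416) and in 5A3+/del CD150neg MPP (-0.39 ± 0.10, limma adjusted p = 0.0197), each against CD150hi HSC, where 3.53% and 6.16% of all genes passed. Of the 12 genes for DREAM and MuvB repressor proteins, 6 were on average higher in WT CD150neg MPP (0.00) and 10 in 5A3+/del CD150neg MPP (0.15), each against CD150hi HSC, and none passed in any comparison by limma, with 0 to 2 at an unadjusted p under 0.05. Over the same comparisons 0% to 10.0% of all genes passed, and 3.98% to 21.8% reached an unadjusted p under 0.05.

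Some values may hold fragments of other genes. In the annotation of mm9, the exons of Ube2c share 22.8% of their bases with Tnnc2, those of Kif4 15.1% with Pdzd11, and smaller parts of Cdc20, Nusap1, Top2a, Cdca8 and Foxm1 overlap other genes. How strand was used in counting is not given in the sources used here. The table also lists pseudogenes of Ccnb2 and Kif4 as genes of their own, between which and the parent gene fragments may have been divided.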

How the data were processed

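RNA of sorted cells from 10 mice was amplified by the study and sequenced with paired ends. The submitters' processing notes name mm9, Bowtie version 0.12.2 and HTSeq. The authors deposited FPKM for 30025 genes, in which each library is scaled to its own fragments and each gene to its exon length, so a value is relative to the other genes of its library.

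The 15409 genes whose FPKM reached 1 in 4 or more libraries were transformed as log2(FPKM + 1), quantile normalized and fitted with limma version 3.58.1 (R version 4.3.3) with 6 group means. All tests were two-sided, with Benjamini-Hochberg adjustment over all 15409 genes. The 42 genes and all gene lists were chosen with earlier results of these data known. The genes named are 12 set members, those past 0.05 in a comparison and, where fewer than 5 passed, the 5 with the smallest p, and from the other lists up to 3 genes past 0.05. Steps were tested on simulated data, in which 200 genes above a set mean level were changed in 5A3+/del CD150hi HSC. The genotype comparison called 9.5% of them at a log2 change of 0.5 and 68% at a change of 1. Most changes of 0.5 or less would thus be missed. Exon positions came from GENCODE for mm9 (29279 of 30025 identifiers matched, 97.5%) and promoters from RefSeq for GRCm38.p6.

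Libraries of 1 mouse are paired by the code in the labels. Deviations from the group means correlated with a median of 0.079 over 28 same-mouse pairs (-0.042 to 0.235) and of -0.025 over 112 pairs of different mice, and the mouse was entered as a block in the alternatives. Further alternatives were the pseudocount, filter, normalization, variance trend, groups in the fit, age, each mouse left out in turn and the promoter window. The study's other measurements were not analysed here. The precision of a value is set by the fragments given in the text and by 4 or 5 mice per group.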

Additional observations from a re-analysis of the deposited data

Results flagged for a closer look

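In each group of 4 or 5 libraries, the highest or lowest library was compared with the others by the gap to its nearest neighbour over the range of the group (Dixon's 95% value). Over the 42 genes and their sum in 6 groups, 258 in all, 17 (6.59%) passed, and chance passes about 1 in 20. In 5A3+/del CD150neg MPP, mouse 1 was low for Plk1 (normalized FPKM 1.10, others 2.98 to 3.19), Bub3 (11.6, others 24.0 to 25.3), Tpx2 (2.81, others 6.84 to 7.33) and Cdca8, which encodes borealin (1.25, others 2.30 to 2.50). In the same group Ccnb2 was high in mouse 2 (144, others 13.2 to 16.8) and Kif4, a chromosome-bound kinesin, in mouse 4 (3.06, others 1.51 to 1.60). In 5A3+/del CD150hi HSC, Bub3 was high in mouse 2 (24.1, others 17.3 to 19.2), and in 5A3+/del CD150lo HSC, Cenpa was high in mouse 1 (14.9, others 9.18 to 10.5).

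In WT CD150hi HSC, Ube2c, the APC/C-specific ubiquitin-conjugating enzyme, was low in mouse 1 (0.990, others 4.98 to 6.00), Kif4 was high in mouse 2 (3.60, others 1.22 to 1.79) and Kif2c was high in mouse 5 (1.41, others 0.373 to 0.671). In WT CD150lo HSC, Mki67 was high in mouse 5 (27.2, others 14.1 to 17.6), Cdca3 and Cdc25c, the phosphatase that activates Cdk1, were high in mouse 3 (5.48, others 2.81 to 3.20, and 3.40, others 1.39 to 1.96), and Cdca8 was low in mouse 4 (1.61, others 2.47 to 2.71). In WT CD150neg MPP, Kif23 was high in mouse 5 (21.6, others 13.9 to 16.0) and Cdca8 was low in mouse 2 (1.03, others 2.00 to 2.29). The cause of these values was not tested.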

How the results depend on the processing

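The 3 genotype comparisons, the 3 tests of a changed step and both comparisons of CD150neg MPP with CD150lo HSC gave 0 of the 42 genes under each of their alternatives. The replicate block (mouse as a fixed term) raised the counts to 5 for CD150neg MPP against CD150hi HSC in WT and in 5A3+/del mice and to 1 for CD150lo HSC against CD150hi HSC in 5A3+/del mice. It changed no other count by over 1.5 times, and the share of all genes that passed with the block is not given here. For WT CD150neg MPP against CD150hi HSC, the count was 1 without a filter, and it ran from 1 to 3 with a mouse left out. For WT CD150lo HSC against CD150hi HSC, it was 1 with a pseudocount of 0.1, without a filter, with the deposited FPKM and with upper quartile scaling, 0 when only these groups were fitted, and 0 to 3 with a mouse left out. For 5A3+/del CD150neg MPP against CD150hi HSC, it was 1 without a filter, with median or upper quartile scaling and when only these groups were fitted, and 0 to 2 with a mouse left out. The cause was not tested, except that fewer libraries entered the fits of single groups and those without a mouse. No named fold change turned its sign under any alternative. Of 759 values of named genes under settings other than leaving out a mouse, 736 stayed on their side of the threshold, as did 657 of 690 with a mouse left out. No summed level moved by more than 1 SD, also with quantile normalized FPKM or without Ccnb2, alternatives chosen after seeing the data, and the motif shares stayed within their 95% exact binomial interval in the shorter window. No scaling moved the median of all genes by over 0.1 on the log2 scale. In comparisons of 5 with 5 libraries the half-width of a gene's 95% interval ran from 0.36 to 1.12 on the log2 scale, with a median of 0.54.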

Other observations

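Cdc25c, chosen here after its values were seen, varied widely between mice. Its normalized FPKM in 5A3+/del CD150hi HSC was 6.54, 6.83, 0.117, 2.43 and 0.383 in mice 1 to 5, and in WT CD150hi HSC it was 0.0503, 0.124, 0.888, 1.43 and 2.09. In the 5A3+/del group it ran from 0.12 to 6.83. Over all 29 libraries, 3 were at or below 3 fragments of Cdc25c, each at 0. These were WT CD150hi HSC of mice 1 and 2 and WT CD150neg MPP of mouse 1. The 0.0503 and 0.124 of WT mice 1 and 2 are thus 0 FPKM before normalization. The 0.117 of 5A3+/del mouse 3 came from 0.3499 FPKM (18 fragments). Ccnb2, also chosen after its values were seen, had 1.44, 2.79, 4.502, 6.74 and 14.1 in WT CD150hi HSC and 27.7, 5.49, 7.56, 26.9 and 11.4 in 5A3+/del CD150hi HSC. The low libraries were WT mice 1 and 2, and the high ones were 5A3+/del mice 1 and 4.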
